A study of Mus musculus with 12 samples.

Results

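Transcript levels of the proteasome genes were examined in lung tumours of mice treated with entinostat, an antibody against PD-1, or both. The genes were taken by symbol, as every row of the deposited count table whose name begins with Psma, Psmb, Psmc, Psmd, Psme, Psmf or Psmg followed by a digit, leaving out names with a colon. The rule gave 50 of the 22738 rows, of which 49 passed a filter on low counts, the exception being Psma8, the testis alpha subunit, with at most 14 counts in a library. Of the 50 genes, 32 were listed as constitutive subunits of the catalytic core or of the regulatory cap. This list includes the untested Psma8 with its ring, although it is not constitutive, and 31 were tested. Another 5 encode the interferon-inducible immunoproteasome subunits Psmb8, Psmb9 and Psmb10 and the PA28 activator subunits Psme1 and Psme2. The rule also took Psmc3ip, a meiotic recombination factor, and Psme2b, a near-identical copy of Psme2 whose reads may be shared with it, neither of which is a proteasome subunit.

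All 12 libraries came from tumours of the Rb1/Trp53/MycT58A model of small cell lung cancer, in which Cre deletes both floxed alleles of Rb1 and p53 (fl/fl) and switches on the lox-stop-lox MycT58A alleles (lsl/lsl). Every mouse, controls included, received Ad5CGRP-Cre, a virus that drives Cre from the promoter of a neuroendocrine peptide gene, into the trachea at 8 weeks of age. Mice with tumours seen on MRI were then allocated to 4 groups of 3 libraries each. The entinostat group received this oral inhibitor of class I histone deacetylases at 15 mg/kg daily for 28 days. The anti-PD-1 group received the antibody at 10 mg/kg by intraperitoneal injection for 4 weeks, and the combination group received both agents. The control group received neither, and whether these mice were given the oral vehicle, the isotype antibody or both is not in the labels. Each library carries the same batch label, and no label ties a library to its own mouse, so p-values reflect only how these samples vary, which may be partly technical. RNA was taken from bulk tumour, in which fewer cells of a type and less RNA per cell cannot be told apart.

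The proteasome degrades proteins tagged with ubiquitin. Its 20S core is a stack of alpha and beta rings, with the proteolytic sites in the beta rings, and the 19S cap binds ubiquitin chains, unfolds the substrate with a ring of ATPases and feeds it into the core. Cells exposed to interferon-gamma replace the catalytic subunits Psmb6, Psmb7 and Psmb5 with Psmb9, Psmb10 and Psmb8, which alters the peptides presented on MHC class I, and they also make more of the PA28 activator. The constitutive genes are known targets of the transcription factor NRF1 (Nfe2l1) through antioxidant response elements, whereas the immunoproteasome genes respond to interferon-gamma and to the transcription factor IRF1.

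Because these inputs differ, the upstream sequence of a constitutive catalytic gene and of both immunoproteasome genes of the MHC region is shown, each 5′ to 3′ on the gene's own strand and ending at the base before the annotated start, from RefSeq on GRCm38.p6. Capitals mark a match to the antioxidant response element core TGACNNNGC in Psmb5 (chr14:54617996-54618245, minus strand) and to the gamma-activated site TTCNNNGAA in Psmb8 (chr17:34197945-34198194, plus strand). Psmb9 (chr17:34187331-34187555, minus strand) is shown without capitals, since no match to these letters or to the interferon-stimulated response element (GAAA, any 2 bases, GAAA) lies in its window.
Psmb5: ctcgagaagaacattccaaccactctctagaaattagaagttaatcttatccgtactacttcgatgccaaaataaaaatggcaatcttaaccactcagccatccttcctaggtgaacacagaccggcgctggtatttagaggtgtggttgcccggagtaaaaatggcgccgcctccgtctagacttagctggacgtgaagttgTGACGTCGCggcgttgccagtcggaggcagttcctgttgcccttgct
Psmb8: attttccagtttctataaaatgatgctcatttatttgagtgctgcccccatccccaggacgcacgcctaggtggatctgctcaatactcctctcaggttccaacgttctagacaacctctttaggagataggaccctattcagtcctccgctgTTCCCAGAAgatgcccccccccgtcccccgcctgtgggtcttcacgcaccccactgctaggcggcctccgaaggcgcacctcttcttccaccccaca
Psmb9: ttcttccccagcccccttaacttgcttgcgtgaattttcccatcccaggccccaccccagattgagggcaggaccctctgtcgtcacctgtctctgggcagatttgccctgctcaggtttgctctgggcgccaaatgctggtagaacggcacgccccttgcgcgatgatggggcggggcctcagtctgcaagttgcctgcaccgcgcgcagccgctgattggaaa
The 225 bases shown for Psmb9 are the whole stretch between its start and that of Tap1, a peptide transporter gene, and the protein-coding genes Psmb9, Tap1, Psmb8 and Tap2 follow each other in the RefSeq annotation of chromosome 17.

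Promoter windows of the 250 bases before the start were found for 42 of the 50 genes. They were searched on both strands for each motif separately, so that matches of different motifs may overlap. TGACNNNGC occurred in the windows of 4 of 25 constitutive genes (16%; Psmb5, Psmb6, Psmc6 and Psmd12), against 11.5% of 27025 mouse genes, and in 0 of the 5 immunoproteasome and PA28 genes. TTCNNNGAA occurred in 1 of those 5 genes (20%; Psmb8) and in 0 of 25 constitutive genes, against 8.13% of all genes. The interferon-stimulated element occurred in 2 of 25 constitutive genes (8%; Psmb3 and Psmd4) and in 0 of the 5, against 3.46% of all genes. A match describes the letters and is not a binding site, and its absence says only that the letters are not in this window.

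Control libraries held between 40534618 and 54001886 counts and treated libraries between 31295987 and 40469275. All but 2 of the 50 genes had at least 20 counts in every library. The structural RNAs Rpph1, Rn45s and Rmrp took between 7.84% and 13.2% of counts in the control group, 20.5% to 36.4% with anti-PD-1, 15.2% to 19.3% with entinostat and 17.7% to 18% with the combination. Every control library thus had more counts and a smaller share of these RNAs than every treated library. In the comparisons with control, depth and RNA composition cannot be told apart from treatment. Leaving the RNAs out before scaling gave 18 calls for the entinostat main effect and 21, beside 22, for the combination against control. In that fit 6.73% and 7.76% of all tested genes were called lower. That fit removes only these rows, so it cannot show whether RNA composition bears on the calls. Rb1 stood between 26.6 and 81.7 CPM (counts scaled to a common library size), Trp53 between 8.4 and 20 CPM and Myc between 50.6 and 273 CPM, and counts per gene cannot tell deleted or mutant alleles from the intact alleles of other cells. Neuroendocrine tumour markers (10 genes) were detected in every library, with a mean log2 CPM between 4.81 and 6.41. Their mean was 6.13 ± 0.25 (SD, n = 6) without entinostat and 5.31 ± 0.56 (SD, n = 6) with it. The proteasome genes together took 0.618% to 0.953% of the counts of control libraries, 0.391% to 0.692% with anti-PD-1, 0.4% to 0.63% with entinostat and 0.381% to 0.582% with the combination.

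Levels between genes were compared as CPM per kilobase of the longest annotated transcript, averaged over all 12 libraries. Core subunits led, with Psma7 at 371 CPM per kb, Psmb6 at 304 and Psma6 at 244. The lid deubiquitinase Psmd14 stood at 169 CPM per kb and the cap ATPase Psmc6 at 104. The immunoproteasome genes were far lower on the same scale. Psmb10 stood at 16.7, Psmb8 at 3.5 and Psmb9 at 1.63 CPM per kb, beside 167, 67.2 and 304 for Psmb7, Psmb5 and Psmb6, the subunits they replace. PA28 was intermediate, with Psme1 at 41.7 and Psme2 at 37.2 CPM per kb. By the RefSeq annotation 14 of the 50 genes overlap another gene, among them Psma4, Psmb5, Psmb7, Psmd13 and Psme1, and the strand setting of the counting is not given, so reads of such partners cannot be told apart. Psmb11, the thymus-specific catalytic subunit, reached at most 28 counts and 0.0732 CPM per kb.

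The effect of entinostat was measured first as a main effect, the mean of its effects without and with the antibody, over 6 libraries with and 6 without the drug. In this contrast 18 of the 49 tested genes were lower (edgeR quasi-likelihood test, Benjamini-Hochberg adjusted p under 0.05 over 17426 genes) and 0 were higher, where 6.74% of all tested genes were called lower and 3.87% higher. Of the 49 log2 fold changes 46 were negative, with a median of −0.65 beside 0.02 for all tested genes. Constitutive subunits accounted for 15 of the 18, and all 31 tested had a negative log2 fold change (median −0.70, range −1.08 to −0.10). Their mean log2 CPM was 7.38 ± 0.42 (SD) without entinostat and 6.68 ± 0.30 with it, and the 2 sets of libraries overlapped, lying between 6.81 and 8.03 and between 6.38 and 7.10. Control library 1 was the highest and combination library 1 the lowest.

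**Figure D1:**
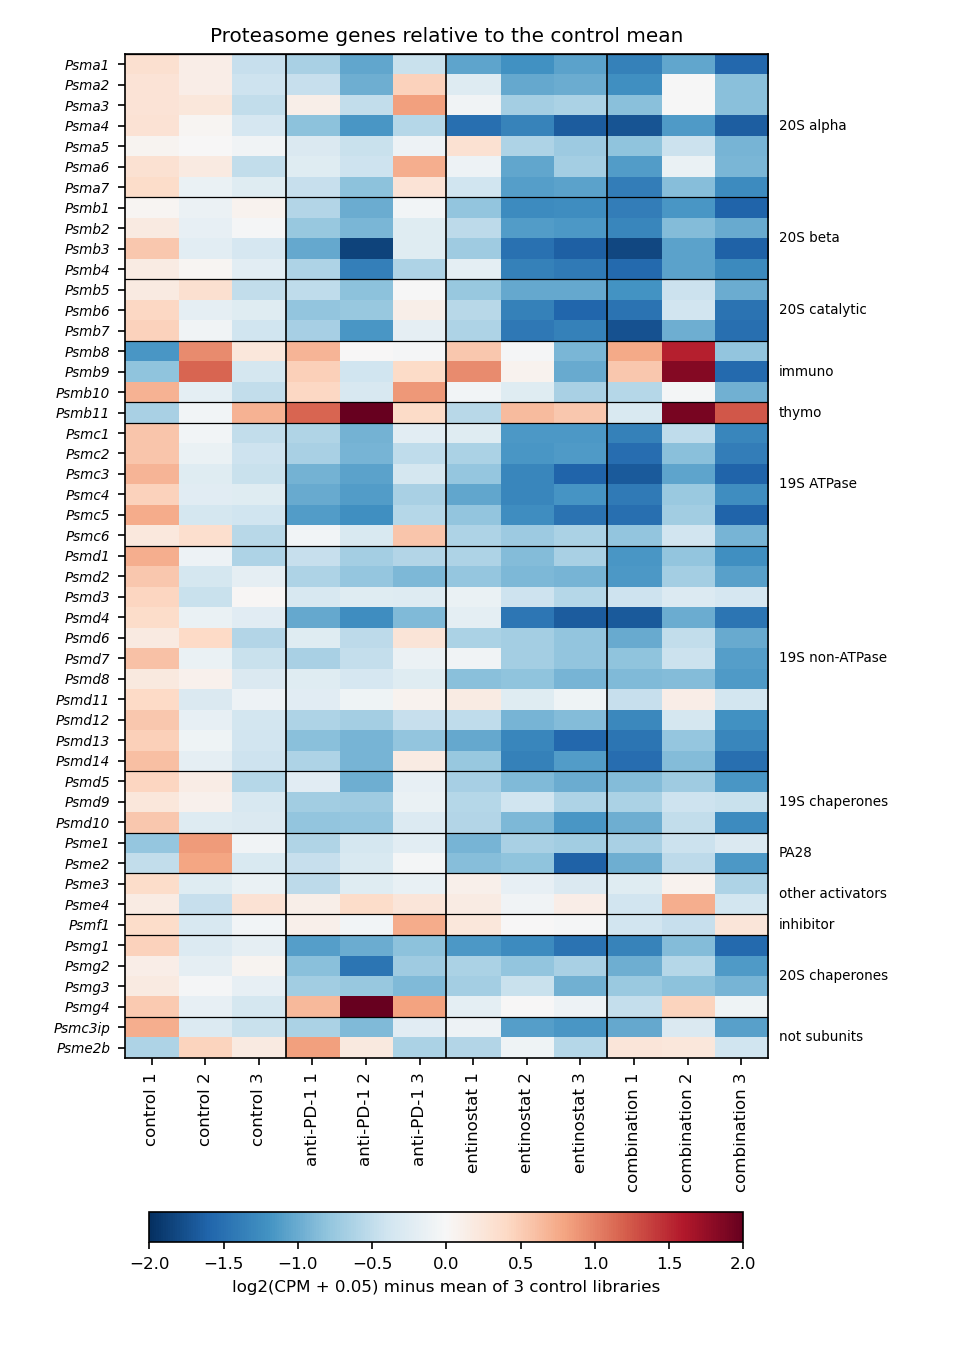
Heat map of the 49 tested genes (rows, grouped by role) in the 12 libraries (columns), as log2(CPM + 0.05) minus the mean of the 3 control libraries, with blue for lower and red for higher. Most rows of the 20S and 19S subunits are blue in the entinostat and combination columns, and many are also blue with anti-PD-1 alone, where 28 of 31 constitutive subunits had a negative log2 fold change (median −0.61), while the rows of Psmb8 and Psmb9 vary within every group.

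In the alpha ring, which gates the entrance to the core, 3 of 7 tested genes were lower. Psma4 read 343, 288 and 221 CPM in the control libraries, 159, 125 and 188 with anti-PD-1, 98.6, 111 and 88.1 with entinostat and 84.3, 127 and 89.4 with the combination. Each of the 9 treated libraries was thus below the lowest control, and anti-PD-1 library 2 overlapped the entinostat-treated libraries. Its main effect was −1.08 on the log2 scale (SE 0.16, edgeR adjusted p = 0.00716, n = 6 and 6), the largest among the 49 genes. Psma1 read 303, 266 and 175 CPM in controls, 154, 117 and 177 with anti-PD-1, 116, 104 and 115 with entinostat and 94.3, 117 and 81.3 with the combination, and its main effect was −0.88 (SE 0.17, adjusted p = 0.0125). Anti-PD-1 library 2 and combination library 2 met at 117 CPM. Psma7 was lower by −0.86 (adjusted p = 0.0312), with a median of 527 CPM (338 to 767) without entinostat and 282 CPM (228 to 453) with it. Psma2, Psma3, Psma5 and Psma6 had log2 fold changes between −0.68 and −0.35 and did not pass the test. Psma5 had the smallest difference of the ring, and entinostat library 1, at 317 CPM, was above all 3 controls (245 to 265 CPM).

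Of the 4 structural beta subunits, Psmb1 and Psmb2 were lower. Psmb1 read 412, 372 and 424 CPM in controls, 267, 203 and 386 with anti-PD-1, 233, 168 and 170 with entinostat and 154, 180 and 132 with the combination. Entinostat libraries and combination libraries lay below every control, and anti-PD-1 library 2 was the single library without entinostat inside their range. The main effect was −0.98 (SE 0.17, edgeR adjusted p = 0.0103). Psmb2 changed by −0.67 (adjusted p = 0.029), while Psmb3 at −0.93 (adjusted p = 0.0599) and Psmb4 at −0.67 (adjusted p = 0.0807) did not pass. Among the constitutive catalytic subunits, Psmb7, which carries the trypsin-like site, was lower by −0.95 (SE 0.23, adjusted p = 0.029). Psmb5, the chymotrypsin-like subunit and target of bortezomib, was lower by −0.70 (SE 0.20, adjusted p = 0.0455), from a median of 71.9 CPM (47.6 to 105) to 42 CPM (36.7 to 62.6), a call lost in 9 of 12 fits that left out a library. Psmb6, the caspase-like subunit, had a log2 fold change of −0.86 that did not pass (SE 0.27, adjusted p = 0.0647).

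In the 19S cap, 4 of the 6 ATPases and 4 of the 11 tested non-ATPase subunits were lower. The ATPases Psmc2, Psmc3, Psmc4 and Psmc6 had log2 fold changes between −0.97 and −0.70, and Psmc1 at −0.65 and Psmc5 at −0.76 did not pass. Psmd8, a subunit of the lid, read 150, 139 and 107 CPM in controls, 110, 104 and 111 with anti-PD-1, 73.5, 74.6 and 68.9 with entinostat and 71.1, 71.6 and 59.7 with the combination. The 6 libraries with entinostat lay between 59.7 and 74.6 CPM and the 6 without between 104 and 150 CPM, with no overlap. Psmd8 was 1 of 2 genes whose 2 sets of libraries were apart in this contrast, the other being Psme2, where 2.32% of all tested genes were apart and lower. Its main effect was −0.78 (SE 0.12, edgeR adjusted p = 0.00697). Psmd14, which cuts ubiquitin chains from the substrate, was lower by −1.0 (SE 0.24, adjusted p = 0.0271), Psmd13 by −0.81 (SE 0.18, adjusted p = 0.0195) and Psmd6 by −0.72 (adjusted p = 0.0375). Psmd2, a scaffold subunit of the base, had −0.56 (adjusted p = 0.0506), and Psmd11, which promotes joining of the cap to the core, had −0.10, the smallest difference of any constitutive subunit.

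**Figure D2:**
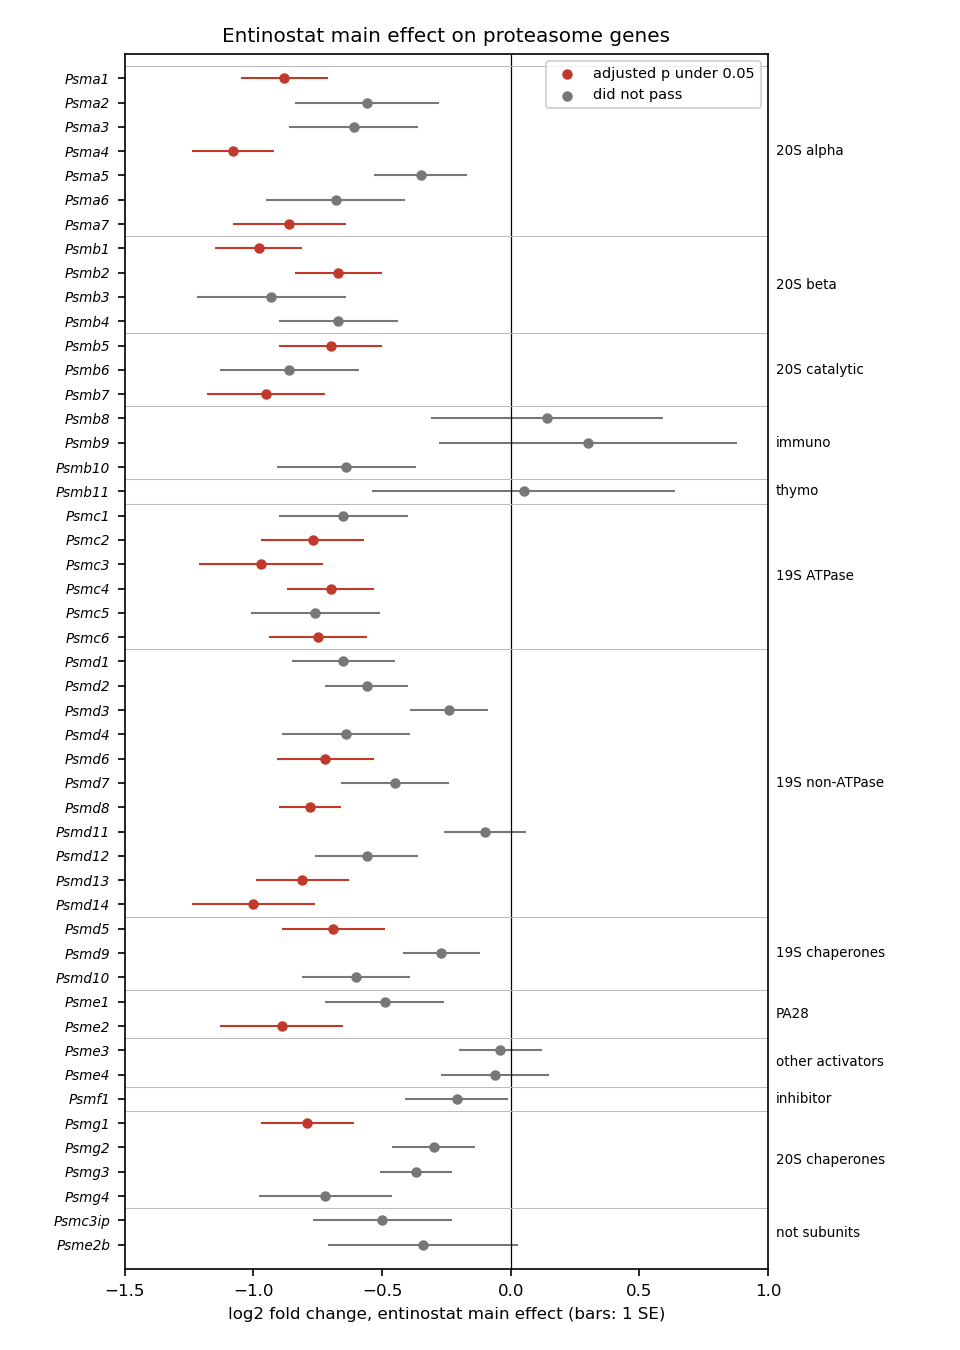
Log2 fold change of the entinostat main effect (horizontal axis) for the 49 tested genes, grouped by role, with bars of 1 SE and red for the 18 genes with an adjusted p under 0.05. All red points lie left of 0, and the 3 points right of 0 are Psmb9 (0.30), Psmb8 (0.14) and Psmb11 (0.05), none of which passed.

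Assembly factors were lower in part. Psmg1, part of the chaperone pair that starts the alpha ring, changed by −0.79 (SE 0.18, edgeR adjusted p = 0.0208), from a median of 32 CPM (21.5 to 63.4) to 18.7 CPM (15.7 to 25.4). Its partner Psmg2 had −0.30, Psmg3 −0.37 and Psmg4 −0.72, and none of these 3 passed. The cap chaperone Psmd5 was lower by −0.69 (adjusted p = 0.0491), while Psmd9 at −0.27 and Psmd10 (gankyrin) at −0.60 did not pass. The alternative activators Psme3 and Psme4 and the inhibitor Psmf1 had log2 fold changes of −0.04, −0.06 and −0.21. The non-subunits Psmc3ip and Psme2b had −0.50 and −0.34. None of these last 5 genes passed in edgeR.

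Against the shared control group, entinostat alone lowered 9 of 49 genes (3.98% of all tested genes were called lower) and the combination lowered 22 of 49 (7.78%), and 0 were higher in either comparison (1.3% and 3.88%). The medians of the 49 log2 fold changes were −0.84 and −0.93, beside 0 and 0.05 for all tested genes. The 9 genes lower with entinostat alone were Psma4 (−1.51, edgeR adjusted p = 0.012), Psmg1 (−1.33), Psmd13 (−1.33), Psmc4 (−1.21), Psma1 (−1.15), Psmb1 (−1.08), Psmd2 (−0.92), Psmb2 (−0.91) and Psmd8 (−0.87). With the combination, Psma4 was lower by −1.50 (SE 0.24, adjusted p = 0.00823), Psmb1 by −1.37 (SE 0.24, adjusted p = 0.00982), Psma1 by −1.35 (SE 0.24, adjusted p = 0.00982) and Psmd8 by −0.97 (SE 0.17, adjusted p = 0.00956). Also called were Psmc3 (−1.51), Psmb7 (−1.42), Psmc2 (−1.27), Psmg1 (−1.26), Psmd13 (−1.19), Psmc4 (−1.14), Psmb2 (−1.05) and Psmd2 (−1.01), and 10 further genes with adjusted p between 0.0269 and 0.0499. All 4 structural beta subunits, 4 of 6 ATPases, 6 of 11 non-ATPase subunits, 3 of 7 alpha subunits and 1 of 3 constitutive catalytic subunits (Psmb7) were among the 22. Treated libraries lay below every control for 27 genes with entinostat alone (15.7% of all tested genes) and for 28 genes with the combination (16.7%). These comparisons and the anti-PD-1 comparison use the same 3 control libraries, which had more counts and less structural RNA than every treated library.

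The counts of calls depended on single libraries. Without control library 1, which had the highest summed level of these genes, entinostat alone lowered 2 genes and the combination 7. Of all tested genes, 1.09% and 3.63% were called lower there. Without entinostat library 2 or library 3 the first count was 0, where 0.201% and 0.0056% of all tested genes were called lower. Without combination library 1 or library 3 the second was 4, beside 1.2% and 1.41% of all tested genes. For the main effect the count lay between 4 and 21 over the 12 fits that each left out a library. Its extremes came without combination library 1 (2.21% of all tested genes lower) and without combination library 2 (6.01%). Psma1, Psma4, Psmb1 and Psmd8 passed in each of these 12 fits for the main effect and for the combination, and Psmd13 passed in 11 for the main effect. The other main-effect calls were less stable: Psmd5 passed in 2 fits, Psmb5, Psmc6, Psmd6 and Psme2 in 3, Psma7, Psmb2, Psmb7 and Psmc2 in 5, Psmc3 and Psmc4 in 6, Psmd14 in 7 and Psmg1 in 8. For entinostat alone, the 9 calls passed in between 2 fits (Psmb2) and 10 (Psma4). A fit to only the 6 libraries compared called 0 of 49 genes in either comparison with control, and 0 of all genes.

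Anti-PD-1 alone gave 0 calls among the 49 genes in edgeR, with 1 gene called among all 17426 (0.00574%). At an unadjusted p under 0.05, 18 proteasome genes were lower (10.2% of all tested genes) and 1 was higher (5.2%), and DESeq2 called 4, all lower, where it called 1.64% of all genes lower. The median log2 fold change was −0.48, and 28 of 31 constitutive subunits had a negative value (median −0.61), 11 of them with all 3 libraries below the controls. The smallest p-values belonged to Psmg2 (−0.98, adjusted p = 0.118), Psmg1 (−1.01, adjusted p = 0.129) and Psmc4 (−0.95, adjusted p = 0.135). All 3 anti-PD-1 libraries lay below all 3 controls for 14 genes (10.7%) and above them for 1 gene, Psmg4 (6.79%). Psmg4 read 75.7, 47 and 41.5 CPM in controls and 82.9, 216 and 92.2 CPM with anti-PD-1, a log2 fold change of 1.25 that did not pass (SE 0.38, edgeR adjusted p = 0.169).

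Adding the antibody to entinostat gave no call. In each comparison of this paragraph edgeR called 0 of all 17426 tested genes. Between the combination and entinostat alone the median log2 fold change was −0.10, with 0 of the 49 genes at an unadjusted p under 0.05. The share of all tested genes at this threshold is not given, so nothing particular to the 49 can be read from the 0. DESeq2 called 0 proteasome genes in this comparison, where it called 1 gene higher and 0 lower among all 22738. Between the combination and anti-PD-1 alone the median was −0.44, with 11 genes lower at an unadjusted p (6.38% of all tested genes), 0 called by edgeR and 1, Psmd8 (−0.68, SE 0.17, edgeR adjusted p = 0.201), called by DESeq2, where that tool called 1.05% of all genes lower. The interaction term, which tests whether the drug's effect differs with the antibody, had a median of 0.42 and 0 calls in edgeR and in DESeq2. Among all genes DESeq2 called 16 higher and 36 lower for this term. At an unadjusted p under 0.05 it was positive for 7 genes (3.82%), led by Psmg1 (1.07, SE 0.35, edgeR adjusted p = 0.722). The anti-PD-1 main effect had 0 calls by either tool and 15 genes lower and 1 higher at an unadjusted p (6.94% and 3.88%). Among all genes DESeq2 called 27 higher and 31 lower for it.

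None of the 3 immunoproteasome catalytic genes passed in any comparison by edgeR. At an unadjusted p under 0.05 Psmb10 was lower in the entinostat main effect and in the combination against anti-PD-1, and in the main effect DESeq2 gave it an adjusted p of 0.109. Psmb8 read 1.96, 8.67 and 5.21 CPM in controls, 7.15, 4.48 and 4.38 with anti-PD-1, 6.51, 4.39 and 2.35 with entinostat and 7.63, 13.2 and 2.56 with the combination. The groups overlapped, and the combination libraries alone spanned 2.56 to 13.2 CPM. Psmb9 read 0.92, 3.75 and 1.29 CPM in controls, 2.31, 1.24 and 2.18 with anti-PD-1, 3.23, 1.73 and 0.794 with entinostat and 2.43, 6.06 and 0.528 with the combination. Combination library 2 was again the highest and combination library 3 the lowest. The entinostat main effects were 0.14 for Psmb8 (SE 0.45, edgeR adjusted p = 0.857) and 0.30 for Psmb9 (SE 0.58, adjusted p = 0.759), with standard errors above the 0.12 to 0.29 of the constitutive subunits. Psmb10 read 36.3, 19.4 and 15.8 CPM in controls, 29.8, 17.9 and 40.8 with anti-PD-1, 21.4, 18.8 and 14.2 with entinostat and 15, 21.8 and 11.4 with the combination. Its main effect was −0.64 (SE 0.27, adjusted p = 0.144), within the range of the constitutive subunits.

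The PA28 subunits form a ring that opens the core gate without ATP. Psme2 read 34.5, 83.8 and 39.1 CPM in controls, 35.1, 39.3 and 47.1 with anti-PD-1, 26.7, 27.7 and 15.8 with entinostat and 24.5, 33.6 and 21.9 with the combination. All 6 libraries with entinostat (15.8 to 33.6 CPM) were below all 6 without (34.5 to 83.8 CPM), and the main effect was −0.89 (SE 0.24, edgeR adjusted p = 0.0414). The call was lost in 9 of 12 fits that left out a library, with log2 fold changes between −1.0 and −0.63. Psme1, which pairs with Psme2, read 33.7, 104 and 55.2 CPM in controls, 38.2, 45.2 and 50 with anti-PD-1, 30.4, 37 and 35.6 with entinostat and 36.7, 43.1 and 47.1 with the combination. The groups overlapped and its main effect of −0.49 did not pass (SE 0.23, adjusted p = 0.181). Control library 2 was the highest for both PA28 genes.

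**Figure D3:**
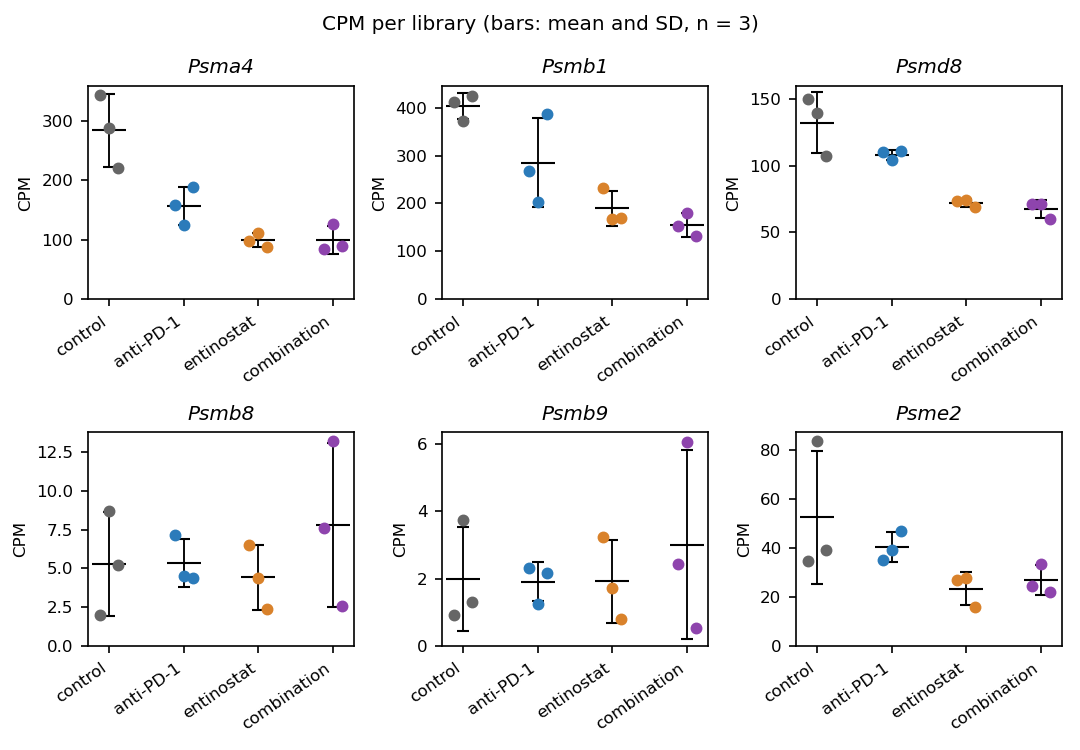
CPM of 6 genes in each library (points, coloured by group, vertical axes from 0), with bars for the mean and SD of 3 libraries. Psmd8 and Psme2 show no overlap between libraries with and without entinostat, while Psmb8 and Psmb9 overlap in every group and reach 13.2 and 6.06 CPM in combination library 2.

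The replacement of constitutive by interferon-inducible catalytic subunits was read as a log2 ratio of counts within each library, with 0.5 added to each count. Psmb8 over Psmb5 was −3.90 ± 0.92 (SD, n = 6) without entinostat and −3.14 ± 0.83 with it, a difference of 0.76 (exact permutation test, two-sided, p = 0.165, adjusted p = 0.299 over 6 tests). Psmb9 over Psmb6 was −7.42 ± 0.96 and −6.47 ± 0.91, a difference of 0.95 (exact permutation p = 0.102, adjusted p = 0.299). Psmb10 over Psmb7 was −3.27 ± 0.56 and −2.92 ± 0.29, a difference of 0.35 (exact permutation p = 0.199, adjusted p = 0.299). None of these passed, and the libraries overlapped for all 3 ratios. With against without the antibody the differences were 0.62 (exact permutation p = 0.266), 0.43 (p = 0.496) and 0.53 (p = 0.0498, adjusted p = 0.299). Psmb10 over Psmb7 was −3.54, −3.90 and −3.86 in controls and between −3.24 and −2.59 in the 9 treated libraries, a separation that was noticed after the values were seen and was not tested.

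**Figure D4:**
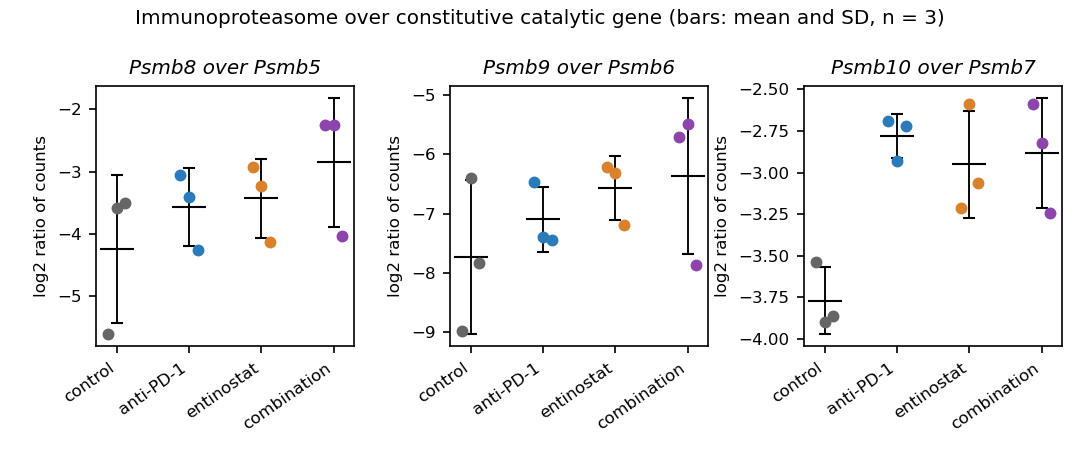
Log2 ratio of counts of each immunoproteasome gene over the constitutive gene it replaces, per library (points) with the mean and SD of 3 libraries (bars). For Psmb10 over Psmb7 the 3 controls lie below the 9 treated libraries, while for the other ratios all groups overlap.

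Immunoproteasome genes are expressed constitutively in leukocytes, so leukocyte markers were measured beside them. The 10 leukocyte markers, such as Ptprc, had a mean log2 CPM from 2.34 in control library 1 to 4.60 in combination library 2, with 2.58 in combination library 3. The mean of Psmb8, Psmb9 and Psmb10 was also highest in combination library 2 (3.60) and lowest in combination library 3 (1.37), with 2.05 in control library 1. All 10 markers were tested, none passed in any comparison by edgeR and their median main effect of entinostat was 0.54. At an unadjusted p under 0.05, 2 of the 10 were higher in that main effect by edgeR, Laptm5 (log2 fold change 0.95, adjusted p = 0.0823) and Lcp1 (1.04, adjusted p = 0.105). The share of all tested genes at this threshold is not given, so no excess can be read from the 2. Summed over the list they reached 75.1 to 171 CPM in controls, 99 to 189 CPM with anti-PD-1, 87.7 to 255 CPM with entinostat and 73.2 to 269 CPM with the combination. With the leukocyte score as a covariate, the entinostat log2 fold change was −0.38 for Psmb8 (SE 0.22) and −0.54 for Psmb9, neither of which passed, and 7 proteasome genes were called for the main effect (4.65% of all tested genes were lower) with a median over the 49 of −0.67. T and NK cell markers were low, with 8 of 12 tested and their summed level between 2.78 and 11.9 CPM, and Cd3e was at 0 in 5 libraries.

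**Figure D5:**
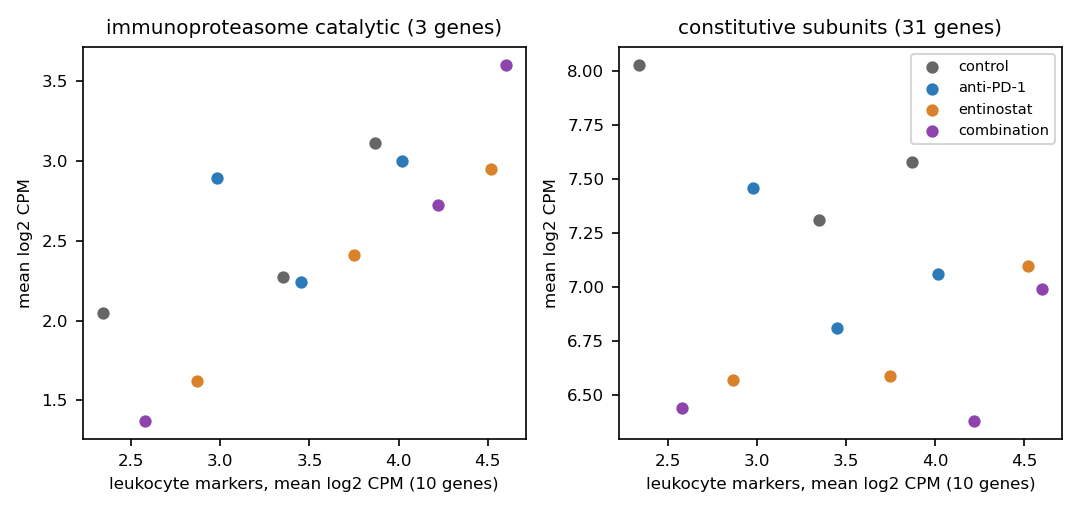
Mean log2 CPM of the 3 immunoproteasome catalytic genes (left) and of the 31 tested constitutive subunits (right) against the mean log2 CPM of 10 leukocyte markers, with a point per library coloured by group. Combination library 2 is at the top right of the left panel, at 4.60 and 3.60, and in the right panel control library 1 is at the top left, at 2.34 and 8.03.

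The neuroendocrine tumour markers moved the same way as the proteasome genes in the entinostat main effect. All 10 had a negative log2 fold change, with a median of −0.83 beside −0.65 for the 49 genes, and 3 were called lower by edgeR, where 6.74% of all tested genes were. These were Scg5 (−1.88, adjusted p = 0.00555), Uchl1 (−1.15, adjusted p = 0.0249) and Calca (−2.75, adjusted p = 0.0414). Their part in the lower proteasome counts was not tested. Alveolar epithelial markers (10 genes) also differed among libraries, with a mean log2 CPM of 2.25 ± 2.51 (SD, n = 6) without entinostat and 4.17 ± 1.29 with it. Their lowest level, −1.13, was in control library 1, the library with the highest constitutive subunits, and their highest, 5.35, in combination library 1, the library with the lowest. With this score as a covariate the median of the 49 main effects was −0.64, beside −0.65 without it, and the standard errors grew. The number called fell from 18 to 5, and the share of all tested genes called lower from 6.74% to 1.6%. The 5 called were Psma1, Psma4, Psmb1, Psmd8 and Psme2. Transcript length also moved with the contrast: the median main effect of all genes was −0.14 in the shortest of 4 equal classes of transcripts (up to 1801 bases) and 0.17 in the longest. Proteasome transcripts are short, with a median of 1440 bases against 2949 for all tested genes, and 31 of the 49 lay in the shortest class, where their median was −0.68 beside that −0.14. With a length trend removed per library, 9 genes were called (5.25% of all genes fitted were lower) and the median was −0.56. The part of tissue composition and of transcript length in the lower counts was not tested.

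Of 14 other tested genes for proteasome assembly, cap function and substrate delivery, 2 were lower in the entinostat main effect and 5 with the combination against control, beside 6.74% and 7.78% of all tested genes. Pomp, the maturation chaperone of the core, read 119, 129 and 91.2 CPM in controls, 82.5, 60.2 and 97.5 with anti-PD-1, 67.8, 60.8 and 44.3 with entinostat and 49.4, 56 and 44.7 with the combination. Both entinostat groups were below every control, and its main effect was −0.83 (SE 0.16, edgeR adjusted p = 0.014). Shfm1, the smallest cap subunit, read 139, 140 and 141 CPM in controls and 76.2 to 101 CPM in the 6 libraries with entinostat. Its main effect, which also takes in the anti-PD-1 libraries not listed here, was −0.62 (SE 0.14, edgeR adjusted p = 0.0212). With the combination Rad23b, a ubiquitin shuttle, Txnl1, a cap-bound thioredoxin, and Akirin2, a nuclear import factor for proteasomes, were lower as well, by −0.74, −0.81 and −0.71.

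The transcriptional regulators of the constitutive genes did not pass. Nfe2l1 stood at 54.7 ± 9.37 CPM (SD, n = 6) without entinostat and 64.1 ± 11.1 CPM with it, a difference of 0.23 on the log2 scale (SE 0.16, edgeR adjusted p = 0.359), and Nfe2l2 had 0.37 (SE 0.28, adjusted p = 0.401). Among 14 tested interferon-gamma and MHC class I genes, 2 were higher with the combination than in controls, where 3.88% of all tested genes were called higher. Nlrc5, the transactivator of class I genes, rose from 0.883 ± 0.389 to 5.24 ± 2.95 CPM (SD, n = 3 each), with a change of 2.57 on the log2 scale (SE 0.56, edgeR adjusted p = 0.0188), and Irf1 rose from 5.83 ± 0.519 to 13.5 ± 2.04 CPM, with 1.22 (SE 0.34, adjusted p = 0.0424). Of 12 fits that each left out a library, Nlrc5 passed in 10 and Irf1 in 3, with log2 fold changes of 2.0 to 2.90 and 1.10 to 1.32. In that comparison Psmb8 and Psmb9 had 0.56 and 0.60 (adjusted p = 0.587 and 0.656), and Tap1, their neighbour, 1.31 (adjusted p = 0.186). Ifng had at most 4 counts in a library and was not tested.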

How the data were processed

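RNA from flash-frozen, dissected lung tumour was sequenced after poly(A) selection, per the labels' protocols. The authors deposited raw counts per gene as a single table of 22738 rows with a column for each of the 12 libraries. The submitters' processing notes name STAR 2.5.4a, mm9, Trimmomatic 0.36, Trim Galore, R 3.5.1 and DESeq2 1.22.2, with no role or order. The annotation, strand setting and handling of multiply mapping reads are stated nowhere in the labels or the table, so genes with processed pseudogenes or overlapping neighbours are uncertain. Between 65.3% and 77.2% of counts from 1 to 20 were even, so both mates of a pair may have been counted. Libraries were grouped by title. For the combination their treatment tag lists just the antibody, and the title was followed.

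The counts were tested with edgeR 4.0.16 in R 4.3.3 (filterByExpr, TMM factors, robust quasi-likelihood F test, a mean per group over all 12 libraries). P-values were adjusted by Benjamini-Hochberg over 17426 genes in each of the 8 comparisons (threshold 0.05). CPM use TMM-scaled library sizes, and log2 CPM uses a prior count of 2. All 66 pairs of libraries differed beyond counting noise (lowest chi-square per degree of freedom 33.5), so none repeated another. This cannot show that each came from its own mouse, and each library was treated as a sample. The 3 catalytic ratios were compared by exact permutation over 924 splits. Transcript length is that of the longest GENCODE M21 transcript (GRCm38, another build than mm9). Promoters came from RefSeq (GRCm38.p6), which matched 42 of the 50 genes.

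Genes named are the catalytic, PA28, targeted and regulator genes, up to 12 called members per comparison by smallest adjusted p (or else the 3 smallest p), the extremes of each role list, and up to 6 called genes of each other list; a few further members are named to complete a list. The members, lists and tests were chosen with earlier results of these data known. Alternatives were RLE and upper quartile factors, DESeq2 1.42.0, no filter, halved counts, no structural RNAs, a replicate block, marker scores as covariates, only the groups compared and leaving out each library. A transcript length offset was chosen after seeing the data. The test scripts were tested on simulated data. A member of the interferon-gamma list is not reported here by name.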

Additional observations from a re-analysis of the deposited data

How the results depend on the processing

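Proteasome genes lower in the entinostat main effect numbered 18, where 6.74% of all tested genes were called lower. With upper quartile factors the count was 10 (3.63% of all genes lower) and with DESeq2 24 (8.3%). It was 7 with the leukocyte score as a covariate (4.65%), 5 with the alveolar score (1.6%) and 9 with the transcript length offset (5.25%). That offset was chosen after seeing the data. For the combination against control (22 lower, 7.78%) it was 13 with upper quartile factors (3.51%) and 5 with the alveolar score (1.99%). For entinostat against control (9 lower, 3.98%) it was 20 with DESeq2 (6.36%) and 4 with the length offset (2.11%). In this comparison the alveolar score gave 0 calls among all genes. Only the groups compared gave 0 calls among all genes in both comparisons with control. DESeq2 called 4 genes for anti-PD-1 against control and 1 for the combination against anti-PD-1, where edgeR called 0, beside 1.64% and 1.05% of all genes that DESeq2 called lower. Leaving out each library in turn gave 4 to 21, 4 to 25 and 0 to 14 lower genes for these first 3 comparisons, and 0 in each fit for the other 5. For the first 3 the share of all tested genes called lower ran from 2.21% to 7.45%, 1.2% to 7.91% and 0.0056% to 4.4%. No setting called a proteasome gene higher, and the median over the genes was negative in every setting for the first 3 comparisons. Upper quartile factors moved the median main effect of all genes to 0.15 and that of the 49 genes to -0.50, and turned the split of all calls from 674 higher and 1175 lower to 1046 higher and 632 lower. The cause of these differences was not tested.

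Replicate numbers do not mark a shared animal or batch in the labels. Of 18 same-numbered pairs, 7 had a correlation of deviations above 0.1 (range -0.29 to 0.23), and 1 of 12 libraries correlated best with its own number. With the replicate block the counts were 7 for the main effect, 13 for the combination and 4 for entinostat alone. The shares of all tested genes called lower with it were 3.64%, 4.37% and 1.45%. The block changed no call of the catalytic ratios, and no other setting did.

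The sign of the main effect reversed for Psmb8 (-0.37 with the alveolar and -0.38 with the leukocyte score) and Psmb9 (-0.38 and -0.54), neither of which passed in any of these fits. Leaving out each library gave -0.16 to 0.42 for Psmb8, -0.21 to 0.73 for Psmb9 and -0.62 to 0.10 for Psmb4 in the combination against entinostat. Psmb9 (21 to 241 counts) and Psmb8 (77 to 523 counts) had fewer counts than the tested constitutive subunits. The part of counting error in the spread of their estimates was not tested.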
